A study of Mus musculus with 2 samples.

Results

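The genes described here have symbols of the cyclic AMP (cAMP) signalling families. RNA came from the round spermatids of mice, the early postmeiotic germ cells whose heads have not yet elongated. Genes were taken by symbol alone, as the A-kinase anchoring protein (Akap), protein kinase A (Prkac and Prkar), adenylyl cyclase (Adcy) and phosphodiesterase (Pde) genes. This gave 58 of the 23234 genes in the table. They are called cAMP signalling genes here, though some have other functions and 23 were below the expression minimum used. RNA-seq was available for 1 library labelled Epc-dKO, from C57BL/6 mice deficient for both Epc1 and Epc2, and for 1 library from wild-type C57BL/6 mice. The Epc1 and Epc2 proteins belong to the TIP60 complex, which acetylates histones, and the comparison asked how expression in round spermatids differs between the genotypes. The labels used here give no allele, Cre driver, age or number of pooled animals for either library.

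Adenylyl cyclases make cAMP, phosphodiesterases break it down, and protein kinase A (PKA) is its main receptor. PKA is held inactive by regulatory subunits until they bind cAMP and release the catalytic subunits. A-kinase anchoring proteins (AKAPs) bind the regulatory subunits and place the kinase at a given site in the cell. In mouse sperm, the soluble cyclase encoded by Adcy10 is switched on by bicarbonate and calcium and is needed for motility, and the AKAPs encoded by Akap3 and Akap4 are structural proteins of the fibrous sheath of the tail.

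Values are FPKM, which corrects fragment counts for how long a transcript is and how many fragments mapped, so that levels can be compared between genes. They summed to 198081 in the library labelled Epc-dKO and 193611 in the wild-type library, and the read depth behind them is unknown. Differences are given as log2 ratios with 1 added to each FPKM, with the library labelled Epc-dKO on top, and the added 1 makes changes of low genes look smaller. Each genotype had 1 library, so differences could be neither tested nor checked in replicates. The words rose and fell are kept for genes at or past 2-fold by this ratio, and expressed means a mean FPKM of at least 1 over both libraries. Epc1 had an FPKM of 13.6 in the library labelled Epc-dKO and 11.4 in the wild-type library, and Epc2 had 10.5 under the Epc-dKO label and 7.12 in wild type, so neither was lower, and a gene-level value does not show whether a part of the gene was deleted. Of 12 round spermatid markers, all were expressed, none was at 0, and their FPKM summed to 669 in the library labelled Epc-dKO and 660 in the wild-type library. All 13 spermatocyte markers and all 11 late spermatid markers were expressed as well. These values therefore do not tell round spermatids from a mixture of germ cells.

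Of the 58 genes 35 were expressed, and 3 of them rose: Prkar2a, a regulatory subunit of PKA, Adcy10, the soluble adenylyl cyclase, and Akap4, the fibrous sheath anchor. None of the 35 fell. Over all 10438 expressed genes, 2.75% were higher and 1.88% were lower by the same rule, in all 4.63% in either direction. At the share of all genes, 0.962 of the 35 would be higher, where 3 (8.57%) were, a difference of about 2 genes. The median log2 ratio of the 35 was 0.16, with 12 below 0 and 23 above, beside a median of -0.05 over all expressed genes, of which 54.4% lay below 0. That median depended on the setting: it was 0.0286 on the TPM scale, beside -0.13 over all genes, and 0.0019 with no minimum. Without Pde4dip, Pde6d and Pde12, which do not encode cyclic nucleotide enzymes, it was 0.1881. The split into 3 higher and 0 lower depended on the scale: it was 4 higher and 1 lower where 0.1 or 0.5 was added to FPKM in place of 1, and 4 higher and 3 lower on the TPM scale, with each library scaled to the same total. Over all genes, 4.15% were higher and 6.25% lower with 0.1 added, 3.31% higher and 3.49% lower with 0.5 added, and 3.60% higher and 6.96% lower on the TPM scale. The same 3 genes passed the 2-fold rule under every added value and rescaling tried. Prkar2a, with a mean FPKM of 4.31, was not counted where the minimum was raised to 5. With 1 added to FPKM none of the 3 reached 4-fold, while Prkar2a passed 4-fold with 0.1 added (log2 ratio 2.28), with 0.5 added (2.02) and on the TPM scale (2.18).

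A list of late spermatid markers was set beside these results. All 11 markers of late (elongating) spermatids were higher in ratio, 7 of them by 2-fold or more, with a median log2 ratio of 1.58. Their FPKM summed to 1879 in the library labelled Epc-dKO and 674 in the wild-type library, and none was at 0 in either. Without Prm2, their most abundant gene, the other 10 summed to 1204 under the Epc-dKO label and 592 in wild type. Prm2 and Prm1, the protamine genes, had the highest log2 ratios of the 11, at 3.01 and 2.82, beside 1.77 for Prkar2a, 1.49 for Adcy10 and 1.17 for Akap4. The 4 markers within 2-fold lay from 0.35 (Oaz3) to 0.75 (Smcp), below all 3 of these genes. Whether late spermatids had a part in the rise of Prkar2a, Adcy10 and Akap4 was not tested. In bulk RNA more cells of a type and more RNA per cell cannot be told apart, for the markers as for these 3 genes.

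These counts were also set beside all genes above a length bound and above a level bound. The longest annotated transcripts were 4965 nt for Prkar2a, 5569 nt for Adcy10 and 3021 nt for Akap4. Akap4 lay just over the length bound of 3000 nt, which took in 5460 of the 10301 expressed genes with a known length. It is a loose class and not a match for length. Of all 5460 expressed genes with a transcript over 3000 nt, 1.48% were higher, against 3 of the 30 expressed cAMP signalling genes in that class. Among all 3550 genes whose mean FPKM was at least 10, 3.27% were higher, against 2 of the 17 cAMP signalling genes at that level, Adcy10 and Akap4.

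**Figure D1:**
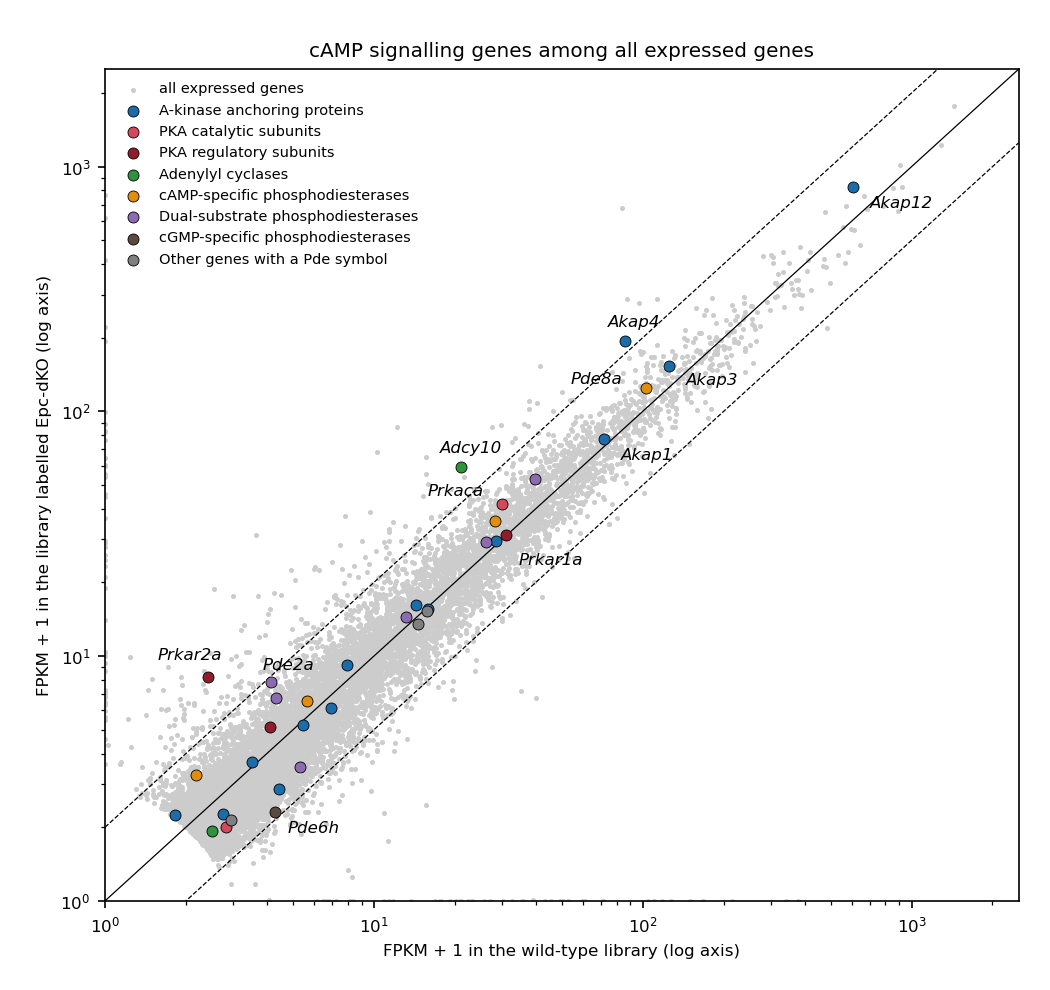
FPKM + 1 in the library labelled Epc-dKO (vertical, log axis) against the wild-type library (horizontal, log axis), with all 10438 expressed genes in grey and the 35 expressed cAMP signalling genes coloured by role. The solid line marks equal values and the dashed lines 2-fold; Prkar2a, Adcy10 and Akap4 lie above the upper dashed line, and Akap12 is the highest of the coloured points.

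The stretches upstream of the 3 genes that rose are shown because they are the promoters of the genes on which the comparison turns. Each is the RefSeq sequence of GRCm38.p6 over 251 bases, up to and including the first base of the annotated transcript, on the plus strand. Capitals mark the letters TGACG, which form one side of the CRE, the element bound by the cAMP-responsive factors CREB and CREM, searched on both strands.
Prkar2a, chr9:108691893-108692143: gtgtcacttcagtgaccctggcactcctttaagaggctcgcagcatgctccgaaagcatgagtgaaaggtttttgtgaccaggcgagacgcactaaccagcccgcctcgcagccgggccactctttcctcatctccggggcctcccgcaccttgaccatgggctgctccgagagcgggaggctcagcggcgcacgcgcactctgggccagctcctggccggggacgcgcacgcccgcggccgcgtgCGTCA
Adcy10, chr1:165484933-165485183: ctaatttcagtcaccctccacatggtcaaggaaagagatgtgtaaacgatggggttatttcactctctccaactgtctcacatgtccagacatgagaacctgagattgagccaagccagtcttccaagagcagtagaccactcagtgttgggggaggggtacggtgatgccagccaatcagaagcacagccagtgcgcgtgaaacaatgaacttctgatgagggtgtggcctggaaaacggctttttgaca
Akap4, chrX:7067265-7067515: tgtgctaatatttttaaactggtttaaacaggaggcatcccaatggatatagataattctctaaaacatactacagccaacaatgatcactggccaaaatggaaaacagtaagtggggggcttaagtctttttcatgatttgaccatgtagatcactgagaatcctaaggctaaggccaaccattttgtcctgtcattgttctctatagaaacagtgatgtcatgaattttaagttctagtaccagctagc

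Base composition varied among these promoters. Over the whole 300-base windows of the RefSeq table, from which these stretches come, GC content was 69.0% for Prkar2a, 49.3% for Adcy10 and 38.3% for the Akap4 window printed. The second Akap4 window was at 47.0%, near that of Adcy10. The Prkar2a window held 1 copy of TGACG, read on the other strand, which overlaps the start of the transcript and reads in capitals at the end of its line. The Adcy10 window and both Akap4 windows in the table held none, and none of these windows held the TATA box letters TATAAA. Of all 32851 windows of this length, 20.8% held TGACG and 13.6% held TATAAA on either strand, and the letters of the motifs do not overlap. Windows were found for 48 of the 58 genes. Of their 95 windows, 20 (21.1%) held TGACG and 4 (4.21%) held TATAAA. Letters in a window do not show binding.

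Among the anchors, Akap4 rose and the other 13 expressed genes lay within 2-fold. Akap4, which encodes the main structural anchor of the fibrous sheath, had an FPKM of 193 in the library labelled Epc-dKO and 85.0 in the wild-type library, a log2 ratio of 1.17. Its partner in the sheath, Akap3, had 152 under the Epc-dKO label and 124 in wild type, a log2 ratio of 0.29. The ratio of Akap4 to Akap3 FPKM was 1.27 in the library labelled Epc-dKO and 0.685 in the wild-type library, so the order of these genes differed between the libraries. Akap4 is X-linked, and the 325 expressed X-linked genes had a median log2 ratio of -0.47, with 270 of them below 0. Of these genes 4 rose (1.23%) and 16 fell (4.92%), beside 2.75% and 1.88% of all expressed genes. Akap14, also X-linked, encodes an anchor found in axonemes and had 14.5 FPKM under the Epc-dKO label and 15.0 FPKM in wild type (log2 ratio -0.04).

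The most abundant anchor gene by far was Akap12, for the scaffold gravin. It had an FPKM of 824 in the library labelled Epc-dKO and 606 in the wild-type library (log2 ratio 0.44). It ranked 4 by FPKM among all genes under the Epc-dKO label and 12 in wild type. Akap12 alone held 62.1% of the summed FPKM of the 16 AKAP genes in the library labelled Epc-dKO and 62.6% in the wild-type library. Akap4 held 14.5% of that sum under the Epc-dKO label and 8.78% in wild type, and Akap3 held 11.4% under the Epc-dKO label and 12.8% in wild type. Akap1, for the anchor of the outer mitochondrial membrane, had 75.9 FPKM under the Epc-dKO label and 70.8 FPKM in wild type (0.10).

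The remaining anchors were lower in level and within 2-fold. The nuclear anchor genes Akap8l and Akap8 had log2 ratios of 0.06 and -0.18, and Akap8l had 28.6 FPKM under the Epc-dKO label and 27.4 FPKM in wild type. Akap9, for a large centrosomal and Golgi anchor, had 15.1 FPKM in the library labelled Epc-dKO and 13.4 in the wild-type library (0.16). Akap10, Akap11 and Akap2 lay between -0.05 and 0.21. Akap13 had the lowest ratio of the anchors, with 1.87 FPKM under the Epc-dKO label and 3.44 FPKM in wild type (-0.63). Akap7 (-0.27) and Akap6 (0.30) were near the expression minimum, and Akap5 and Akap17b were below it.

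Of the PKA subunit genes, the type II regulatory gene Prkar2a rose and the other expressed ones lay within 2-fold. Prkar2a, for the type II alpha regulatory subunit, rose to an FPKM of 7.22 in the library labelled Epc-dKO, against 1.41 in the wild-type library, a log2 ratio of 1.77 on the FPKM + 1 scale and a ratio of 5.13 of the FPKM values themselves. It ranked 96 by rise among all expressed genes, ahead of Adcy10 at 136 and Akap4 at 204. Type II subunits are the ones most AKAPs bind with the highest affinity. Prkar1a, for the type I alpha subunit and the most abundant of the regulatory genes, had 30.2 FPKM under the Epc-dKO label and 30.1 FPKM in wild type (0.00). Prkar1b had 4.16 under the Epc-dKO label and 3.12 in wild type (0.32), and Prkar2b lay below the expression minimum at 0.643 under the Epc-dKO label and 0.984 in wild type.

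The make-up of the regulatory subunit transcripts therefore differed by Prkar2a. It held 17.1% of the summed FPKM of the 4 genes in the library labelled Epc-dKO and 3.95% in the wild-type library, while Prkar1a held 71.5% under the Epc-dKO label and 84.5% in wild type. The sum of type II over type I FPKM was 0.229 in the library labelled Epc-dKO and 0.0720 in the wild-type library. Both libraries had more type I than type II transcript.

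Of the catalytic subunit genes, Prkaca had an FPKM of 40.8 in the library labelled Epc-dKO and 29.0 in the wild-type library, a log2 ratio of 0.48. Prkacb, for the beta catalytic subunit, had 1.001 under the Epc-dKO label and 1.83 in wild type (-0.50). Neither passed the 2-fold rule, and Prkaca held 97.6% of their sum under the Epc-dKO label and 94.1% in wild type. Regulatory over catalytic FPKM, summed over each family, was 1.01 in the library labelled Epc-dKO and 1.15 in the wild-type library. The gene-level values do not separate the sperm-specific first exon of Prkaca from its somatic form.

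**Figure D2:**
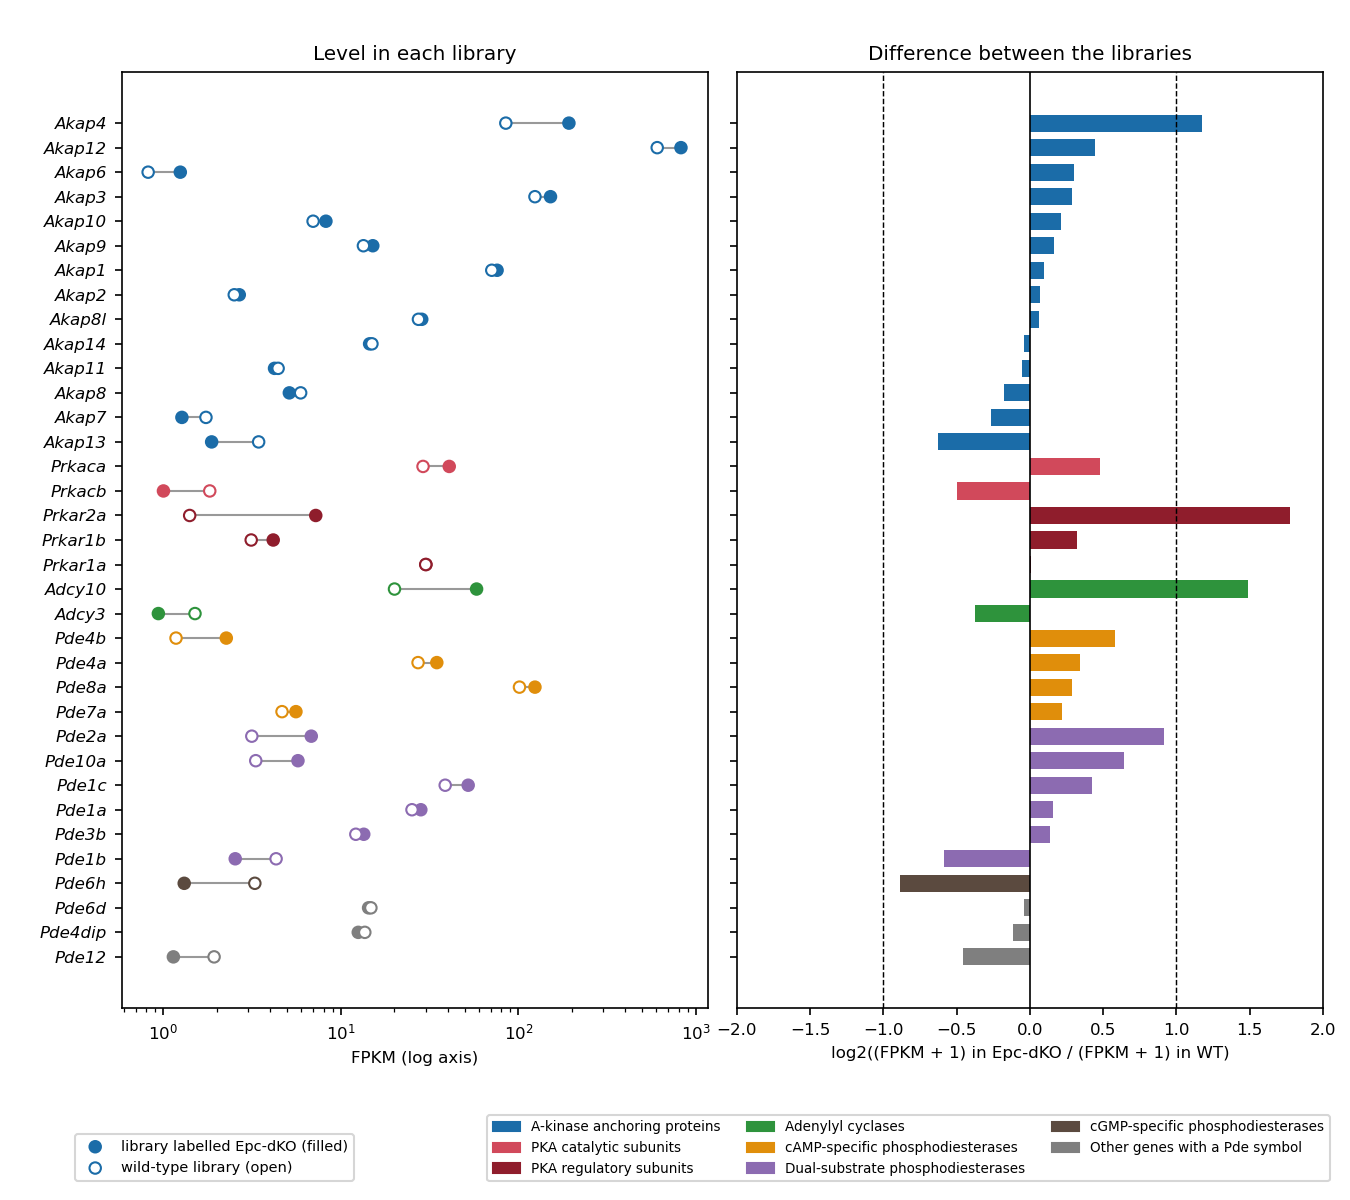
Left, FPKM on a log axis of the 35 expressed cAMP signalling genes in the library labelled Epc-dKO (filled) and the wild-type library (open); right, bars of the log2 ratio of FPKM + 1, with dashed lines at 2-fold. The bars of Akap4 (1.17), Prkar2a (1.77) and Adcy10 (1.49) pass the right dashed line, and no bar passes the left one.

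Adenylyl cyclase transcripts were mostly those of 1 gene. Adcy10 rose to an FPKM of 58.2 in the library labelled Epc-dKO, against 20.1 in the wild-type library, a log2 ratio of 1.49. It held 93.9% of the summed FPKM of the 10 cyclase genes in the library labelled Epc-dKO and 77.4% in the wild-type library. The 9 genes for transmembrane cyclases, which respond to G proteins, summed to 3.77 FPKM under the Epc-dKO label and 5.86 FPKM in wild type. Of the 9, 8 had the lower value in the library labelled Epc-dKO. Of all expressed genes 54.4% did, but that class takes in only Adcy3 of these cyclases, so it is not a matched background. That count of 8 rests mostly on genes below the expression minimum, among them Adcy8 with 0.00505 under the Epc-dKO label and 0.00558 in wild type. Adcy3 was the only one of the 9 to reach the expression minimum, with 0.937 FPKM under the Epc-dKO label and 1.51 FPKM in wild type (-0.37). Adcy1, just under the minimum, had 0.618 under the Epc-dKO label and 1.01 in wild type. Adcy7, with 0.353 FPKM under the Epc-dKO label and 0.894 FPKM in wild type, and Adcy9, with 0.391 under the Epc-dKO label and 0.958 in wild type, passed the minimum on the TPM scale and were then lower by 2-fold (-1.01 and -1.001).

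The expressed phosphodiesterases that act on cAMP alone all lay above 0 in ratio, within 2-fold. Pde8a, for a high-affinity cAMP phosphodiesterase, was the most abundant of all Pde genes, with an FPKM of 124 in the library labelled Epc-dKO and 101 in the wild-type library (log2 ratio 0.29). Pde4a, of the rolipram-sensitive family, had 34.7 under the Epc-dKO label and 27.2 in wild type (0.34). Pde7a had 5.58 under the Epc-dKO label and 4.66 in wild type (0.22), and Pde4b had 2.26 under the Epc-dKO label and 1.18 in wild type (0.58). The 4 expressed genes of this class had a median log2 ratio of 0.31, and Pde4c, Pde4d, Pde7b and Pde8b were below the minimum.

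The phosphodiesterases that act on both cAMP and cGMP varied more. Pde1c and Pde1a, for enzymes activated by calcium and calmodulin, lay above 0 in ratio. Pde1c had 52.2 FPKM under the Epc-dKO label and 38.7 FPKM in wild type (0.42), and Pde1a had 28.2 under the Epc-dKO label and 25.2 in wild type (0.16). Their relative Pde1b had 2.54 under the Epc-dKO label and 4.32 in wild type (-0.59). Pde2a, for the enzyme stimulated by cGMP, had 6.81 FPKM in the library labelled Epc-dKO and 3.15 in the wild-type library, and its log2 ratio of 0.91 was the nearest to the 2-fold rule of the genes that did not pass it; it passed with smaller pseudocounts and on the TPM scale (1.003 to 1.09). An exon of Pde2a overlaps Gm45837 on the same strand in GENCODE M21, but no value was given for Gm45837, so how reads there were assigned is unknown. Pde10a had 5.73 under the Epc-dKO label and 3.31 in wild type (0.64), and Pde3b, for an enzyme inhibited by cGMP, had 13.5 under the Epc-dKO label and 12.1 in wild type (0.14). Pde3a and Pde11a were below the minimum.

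Of the 7 genes of the cGMP-specific class, Pde6h alone was expressed. It encodes the inhibitory gamma subunit of the cone photoreceptor enzyme and had 1.31 FPKM in the library labelled Epc-dKO and 3.28 in the wild-type library, a log2 ratio of -0.89, which passed the 2-fold rule with pseudocounts of 0.1 (-1.26) and 0.5 (-1.06) and on the TPM scale (-1.23). The genes for the catalytic subunits of that enzyme family, Pde6a, Pde6b and Pde6c, were all below the minimum, with Pde6b listed at 0 in the wild-type library. Among 3 genes whose Pde symbol does not stand for a cyclic nucleotide enzyme, Pde6d, for a chaperone of prenylated proteins, had 14.3 FPKM under the Epc-dKO label and 14.8 FPKM in wild type (-0.04). Pde4dip, for the centrosomal protein myomegalin, had 12.5 under the Epc-dKO label and 13.6 in wild type (-0.11), and Pde12, for a mitochondrial poly(A) exonuclease, had 1.14 under the Epc-dKO label and 1.93 in wild type (-0.45).

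The make-up of the phosphodiesterases was nearly the same in both libraries. Of the summed FPKM of the 23 cyclic nucleotide enzyme genes, Pde8a held 44.5% in the library labelled Epc-dKO and 44.7% in the wild-type library. Pde1c held 18.7% under the Epc-dKO label and 17.1% in wild type, and Pde1a held 10.1% under the Epc-dKO label and 11.1% in wild type. Some small shares differed more. Pde2a held 2.44% under the Epc-dKO label and 1.39% in wild type. Pde1b held 0.911% under the Epc-dKO label and 1.90% in wild type, and Pde6h held 0.470% under the Epc-dKO label and 1.44% in wild type.

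**Figure D3:**
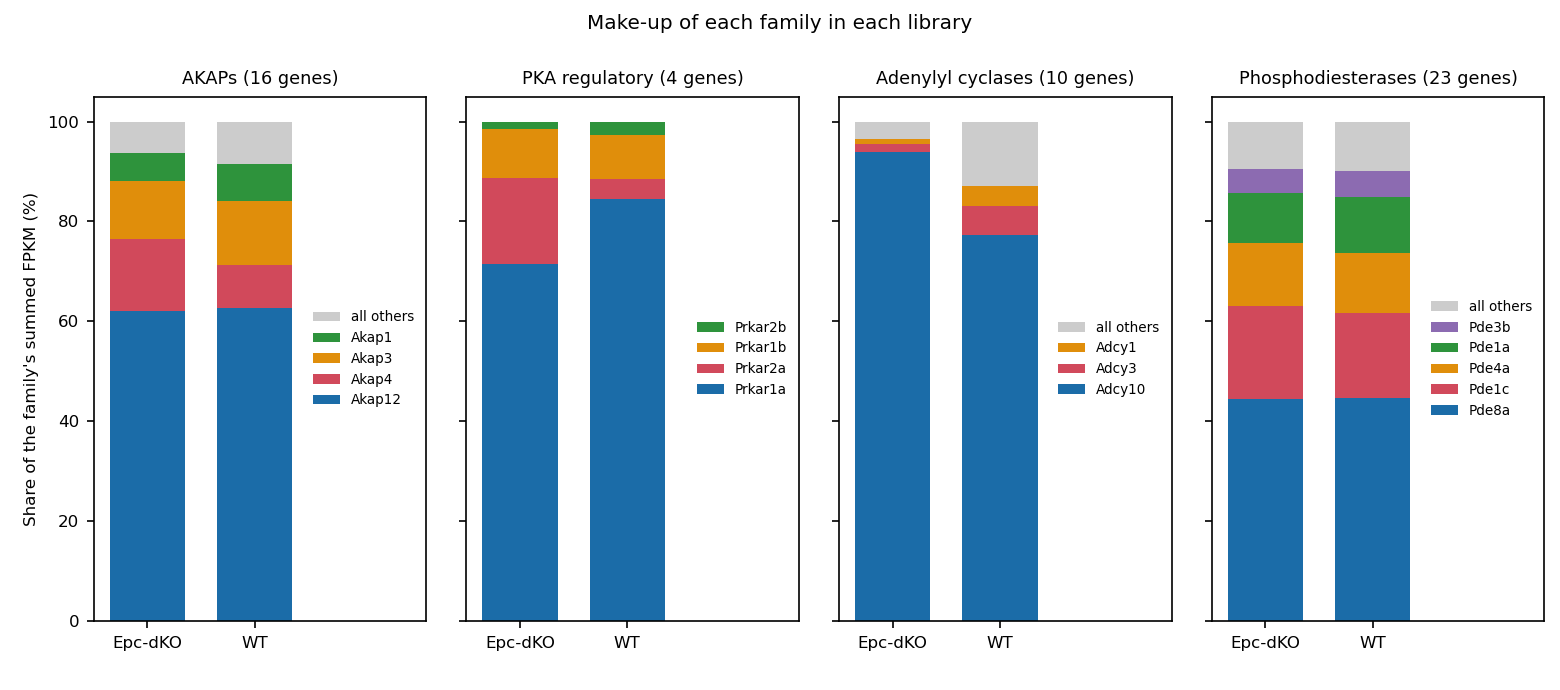
Share of each family's summed FPKM (vertical axis, percent) held by its most abundant genes, with the library labelled Epc-dKO on the left of each panel and the wild-type library on the right. Prkar2a takes 17.1% of the regulatory subunits under the Epc-dKO label and 3.95% in wild type, Adcy10 takes 93.9% of the cyclases under the Epc-dKO label and 77.4% in wild type, while Akap12 and Pde8a hold nearly equal shares in both libraries.

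The 23 genes below the expression minimum had at most 1.01 FPKM in either library and were spread over the families. They hold 8 of the 10 cyclases, 12 of the 26 Pde genes, 2 AKAPs and 1 regulatory subunit. The values just inside the minimum were those of Akap6 (mean FPKM 1.03) and Adcy3 (1.22), and just outside it those of Adcy1 (0.815) and Prkar2b (0.813).

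Other genes of the pathway, taken from lists of 80 symbols of which 74 were in the table and 40 were expressed, held 1 gene that rose (2.50%) and none that fell, with a median log2 ratio of 0.14. Beside 2.75% higher and 1.88% lower over all genes, these counts are near the background. The one that rose was Car2, for carbonic anhydrase 2, an enzyme that forms bicarbonate. Car2 had an FPKM of 7.21 in the library labelled Epc-dKO and 0.919 in the wild-type library, a log2 ratio of 2.10. Its wild-type value lay below 1, so Car2 reached the minimum only through the library labelled Epc-dKO. With a mean FPKM of 4.06 it was not counted where the minimum was 5. The part of late spermatids in its rise was not tested either. In the same list of G proteins and bicarbonate entry (10 expressed), Gnai2, for an inhibitory G protein, had 8.93 under the Epc-dKO label and 14.1 in wild type (-0.60). The bicarbonate transporter genes Slc4a7 and Slc26a6 had log2 ratios of 0.37 and -0.69.

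The other lists had no gene past 2-fold. Of 15 expressed genes for other PKA-anchoring proteins or proteins with the fold of a regulatory subunit, Cabyr, for a calcium-binding protein of the fibrous sheath, had 168 FPKM in the library labelled Epc-dKO and 131 in the wild-type library (0.35). Spa17, a sperm protein gene, had 166 under the Epc-dKO label and 109 in wild type (0.60), Fsip1, for a fibrous sheath interacting protein, had 39.8 under the Epc-dKO label and 24.0 in wild type (0.71), and Sphkap had 17.0 under the Epc-dKO label and 10.5 in wild type (0.64). The median of this list was 0.00. Slc9a10, for the sperm sodium-proton exchanger with a cyclic nucleotide-binding domain, had 34.5 under the Epc-dKO label and 21.5 in wild type (0.66).

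Among the CREB family factors and coactivators (8 expressed, median 0.24), Crem, for the cAMP-responsive factor of spermatids, had 24.5 FPKM in the library labelled Epc-dKO and 14.6 in the wild-type library (0.71). Crebbp had 29.4 under the Epc-dKO label and 23.8 in wild type (0.30), and Crtc1, for a CREB coactivator, had 1.67 under the Epc-dKO label and 3.45 in wild type (-0.74). Pkig, for a PKA inhibitor, had 23.3 under the Epc-dKO label and 21.8 in wild type (0.10), and Pkib, another inhibitor gene, had 1.86 under the Epc-dKO label and 0.875 in wild type (0.61). Cnga3 and Cnga4, for subunits of cyclic nucleotide-gated channels, had log2 ratios of 0.06 and 0.38. The cGMP list had 2 expressed genes, the natriuretic peptide receptor genes Npr1 (-0.19) and Npr2 (0.29).

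Markers of cells outside the spermatid stages went the other way or were mixed. The 11 expressed spermatogonial markers, of 15 listed, all lay below 0 with a median of -0.75, and Dmrt1 and Crabp1 fell. The 15 summed to 20.8 FPKM in the library labelled Epc-dKO and 43.8 in the wild-type library. The 13 spermatocyte markers had a median of -0.10, with Tex101 and Nxt1 lower by 2-fold, and summed to 362 under the Epc-dKO label and 368 in wild type. Without Mns1, their most abundant gene, the other 12 summed to 165 under the Epc-dKO label and 212 in wild type.

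Of the somatic lists, the one for Leydig cells, with 9 of 10 genes expressed, centred at -0.03, with Insl3, Ptgds and Agt lower by 2-fold, and summed to 37.8 under the Epc-dKO label and 54.9 in wild type. Peritubular markers (5 of 9 expressed) had a median of -0.58 and summed to 44.0 under the Epc-dKO label and 30.7 in wild type. The higher sum rests on Actg2, which rose: the other 8 summed to 7.81 under the Epc-dKO label and 15.5 in wild type. The Sertoli cell list, with 3 of 12 genes expressed, centred at -0.10 and summed to 28.6 under the Epc-dKO label and 22.6 in wild type, with 1 listed at 0 in wild type. That sum rests on Tjp1, which rose: the other 11 summed to 8.55 under the Epc-dKO label and 13.1 in wild type. Vwf (-0.12) was the expressed one of 10 vessel, blood and immune genes, which summed to 5.57 under the Epc-dKO label and 6.35 in wild type with 2 at 0 in each library. The part of these cells in the ratios of the 12 expressed cAMP signalling genes below 0, all within 2-fold, was not tested.

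**Figure D4:**
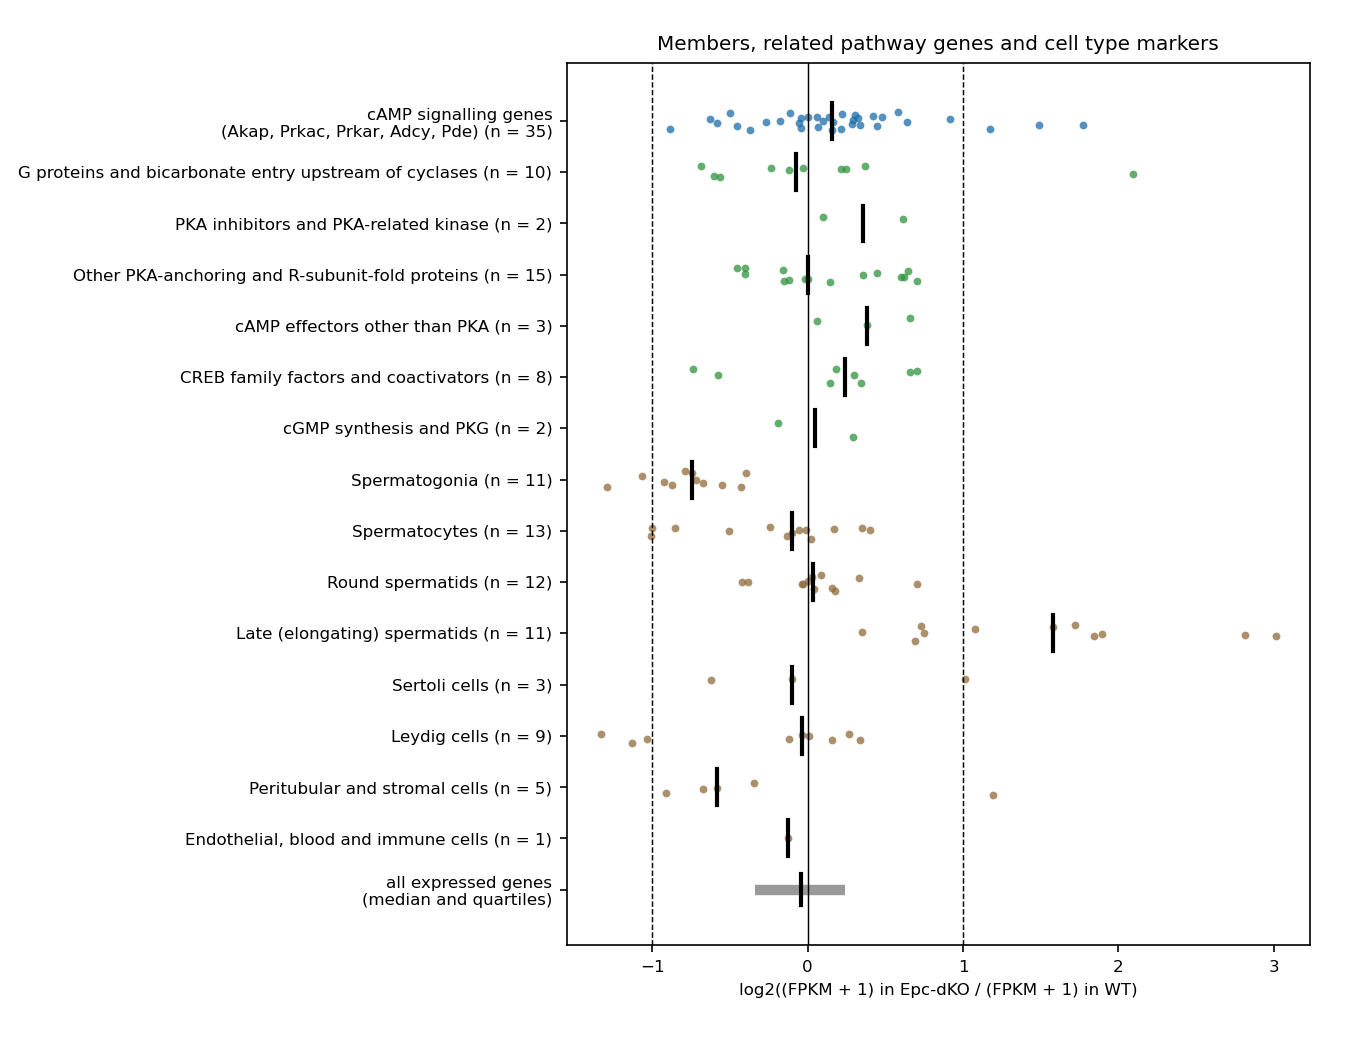
Log2 ratio of FPKM + 1 (horizontal axis, library labelled Epc-dKO over wild type) of each expressed gene in the cAMP signalling set, the related pathway lists and the cell type marker lists, with a black bar at each median, dashed lines at 2-fold and, at the bottom, the median and quartiles of all expressed genes. The cAMP signalling set centres at 0.16 with 3 points past 2-fold, Car2 stands alone at 2.10 in the first pathway list, and the late spermatid markers centre at 1.58.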

How the data were processed

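RNA-seq of round spermatids was used from 1 library labelled Epc-dKO and 1 wild-type library. Total RNA went into strand-specific NEBNext Ultra libraries, per the labels' protocols. The submitters' processing notes name Cufflinks 2.2.1 and the build mm9. The deposited values are FPKM per gene. The sources used here name no aligner, annotation, strand setting or scaling between libraries. Since FPKM depends on the mapped total, strong change in abundant transcripts moves every other value.

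A row of library codes among the 23235 was left out, and 0 columns of other series were present. Genes were matched by symbol, grouped by role, and compared as log2((FPKM + 1)/(FPKM + 1)) with a minimum mean FPKM of 1 and a 2-fold rule. The code was checked on simulated data, which does not give the rule's error rate: with 1 library per genotype and unknown depth that rate is unknown. No p-value was computed. Transcript lengths came from GENCODE M21 and chromosomes from RefSeq (GRCm38.p6), not mm9, for 98.7% and 99.1% of expressed genes; promoter coordinates are those of GRCm38.p6. Exons of Prkar2a, Adcy10 and Akap4 overlapped no other gene's in GENCODE M21 (basic set). Named genes were all genes past 2-fold, the 3 most abundant of each role group, those nearest the thresholds, and in each pathway list the 2 most abundant and 2 most changed; other expressed members and the marker genes were added after their values were seen. The members and lists were chosen with earlier results of these data known. Alternatives were pseudocounts of 0.1 and 0.5, no minimum or one of 5, a 4-fold rule, 4 rescalings, and leaving out the most changed member or Pde4dip, Pde6d and Pde12. Python 3.11.15, NumPy 2.4.6, pandas 2.3.3 and Matplotlib 3.10.9 were used.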

Additional observations from a re-analysis of the deposited data

How the results depend on the processing

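Over the alternatives, 459 of 472 pairs of a named gene and a setting stayed on the same side of the fold rule, 10 newly passed it, 3 no longer passed it (all under the 4-fold rule) and 0 were reversed. Reversal was counted only for genes past 2-fold in the main setting. Another added value, minimum or fold cannot turn the sign of a ratio, so the 0 says little. Of the cAMP signalling genes, 1 was lower with a pseudocount of 0.1 and 1 with 0.5 (Pde6h), and 3 on the TPM scale (Pde6h, Adcy7 and Adcy9), where both libraries sum to the same larger total, the minimum keeps more genes and the added 1 counts for less. The share of all genes that were lower was then 6.25%, 3.49% and 6.96%. Under the 4-fold rule, with 1 added, 0 were higher. The median of the cAMP signalling genes was 0.0019 without a minimum, which adds genes near 0, and 0.0286 on the TPM scale. For the pathway lists, 2 genes were higher (Car2 and Pkib) and 2 lower (Slc26a6 and Crtc1) with a pseudocount of 0.1, 0 were higher with a minimum of 5, and 2 were lower on the TPM scale. Their median was 0.0003 without a minimum and 0.2449 with a minimum of 5, where fewer genes are counted. The rescalings other than the TPM scale, and leaving out the most changed member or Pde4dip, Pde6d and Pde12, kept the counts of 3 higher and 0 lower where they gave one. No paired analysis was possible because there was 1 library of each kind. Read depth is unknown, so how precise values near the minimum are cannot be given, among them that of Prkar2a in the wild-type library.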
